A study of Mus musculus with 11 samples.

Results

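A set of 26 protein-coding genes was examined whose mRNA was higher wherever mutant CEBPA had been introduced, whether CEBPA came before or after mutant CSF3R. The genes were chosen by their own read counts in these samples, expressed as CPM (counts divided by the column total and multiplied by 1000000). A gene belonged to the set when its mean in CEBPA-first cells was at least 1 CPM and at least 2.5 times the mean in CSF3R-only cells, and when its mean in CSF3R-first cells lay between 0.8 and 1.5 times the CEBPA-first mean. The rule picked 26 of 51912 genes in the count table. Because the rule used all 3 groups, the values of the 26 genes in these groups are a description. Fitted differences and counts of calls are given for them below in that sense only, and support nothing.

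The cells were lineage-negative marrow from mice labelled C57BL/6, transduced with 2 retroviral vectors, sorted for both fluorescent reporters and then cultured for 48 h with 4-hydroxytamoxifen. One vector was active from the start and the other became active once the drug had switched on Cre recombinase, for which the study describes donor mice with a tamoxifen-inducible Cre at the Rosa26 locus (Rosa26 ERT2-Cre). CSF3R-only cells (4 samples, A to D) carried mutant CSF3R in the active vector and an empty switchable vector. CSF3R-first cells (3 samples, A to C) carried mutant CSF3R in the active vector and mutant CEBPA in the switchable vector, and CEBPA-first cells (4 samples, A to D) carried the reverse. The alleles were CSF3R T618I and CEBPA V314VW, so that all 3 groups expressed mutant CSF3R and were exposed to the drug. The mutant genes were driven by retroviral vectors in cultured cells and not from their own loci, and the order of the 2 mutations also set which of them had been on for longer. The labels do not say whether the samples of a group came from separate animals, so spreads and p-values describe these samples and may be partly technical.

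CEBPA is the transcription factor that commits myeloid progenitors to the granulocyte lineage, and it opens and binds enhancers of granule and maturation genes. CSF3R, the receptor for granulocyte colony-stimulating factor, signals through JAK kinases and STAT proteins and drives proliferation and maturation of the same lineage. Both are mutated in acute myeloid leukemia. Against the shared background of mutant CSF3R, the CEBPA-first and CSF3R-first groups therefore ask which transcripts depend on the order in which mutant CEBPA arrived, and the 26 genes are those that reached a like level in either order.

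Column totals ran from 47905747 to 72268346 counts, so that 3 counts, the limit that a count of 0 allows, correspond to 0.0415 to 0.0626 CPM. Such limits cover counting error only. Ptprc, the pan-leukocyte marker CD45, was between 503 and 1221 CPM in every sample. Of 10 neutrophil maturation markers, 9 were lower in CEBPA-first and 8 were lower in CSF3R-first cells than in CSF3R-only cells, their sum being 12532 to 14494 CPM in CSF3R-only, 6594 to 11164 CPM in CSF3R-first and 4874 to 6374 CPM in CEBPA-first cells. Most of each sum was Mmp8, not called in either comparison, with means of 7364 CPM in CSF3R-only, 6518 CPM in CSF3R-first and 5027 CPM in CEBPA-first cells. Lcn2, the next highest, had means of 2247, 1176 and 357 CPM. Of all tested genes 19.0% and 4.53% were lower in these comparisons. Markers of several other lineages were also lower. All 6 megakaryocyte markers were lower in both orders, their sum being 786 to 1119 CPM in CSF3R-only, 313 to 525 CPM in CSF3R-first and 113 to 166 CPM in CEBPA-first cells. Of 7 tested eosinophil markers 4 were lower in each order, and in CEBPA-first cells 7 of 8 monocyte and macrophage, 4 of 6 dendritic cell and 5 of 6 erythroid markers were lower, against 1, 0 and 0 in CSF3R-first cells. Other lists moved in both directions. Of 5 progenitor markers, Myb and Flt3 rose in CEBPA-first cells (log2 fold changes 1.62 and 1.495) and Cd34 fell in both orders. Of 8 mast cell and basophil markers 1, Fcer1a, rose (1.15) and 3 fell in CEBPA-first cells, and 2 fell in CSF3R-first cells. Of 4 tested stroma and endothelium markers Col1a2 rose (4.34, to a mean of 3.60 CPM) and Col1a1 fell in CEBPA-first cells. In bulk RNA fewer mature cells and less RNA per cell cannot be told apart, and the part of these shifts in the values below was not tested. Sample A of the CSF3R-first group stood apart, being the lowest of its group in 54.9% of all tested genes. Mouse Cebpa (mean 83.1 CPM in CSF3R-only, 132 CPM in CSF3R-first and 174 CPM in CEBPA-first cells) and Csf3r (805, 517 and 160.0 CPM) were counted at the mouse genes and do not check the vectors, whose inserts are human. Whether some reads of the inserts were counted at these mouse genes was not tested.

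Genes that came up to a like level in both orders were the minority. Among 10934 protein-coding genes with a CEBPA-first mean of at least 1 CPM, 525 had a mean at least 2.5 times that of CSF3R-only cells, and the 26 genes made up 4.95% of them. Of the others, 496 had a CSF3R-first mean below 0.8 of the CEBPA-first mean and 3 had one above 1.5 times it. Over all 525 genes the median ratio of CSF3R-first to CEBPA-first was 0.564, whereas in the set it ran from 0.804 to 1.28 with a median of 0.874. The set's CEBPA-first means were 2.52 to 129 times the CSF3R-only means (median 3.69), and its CSF3R-first means were 2.07 to 149 times them (median 3.33).

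**Figure D1:**
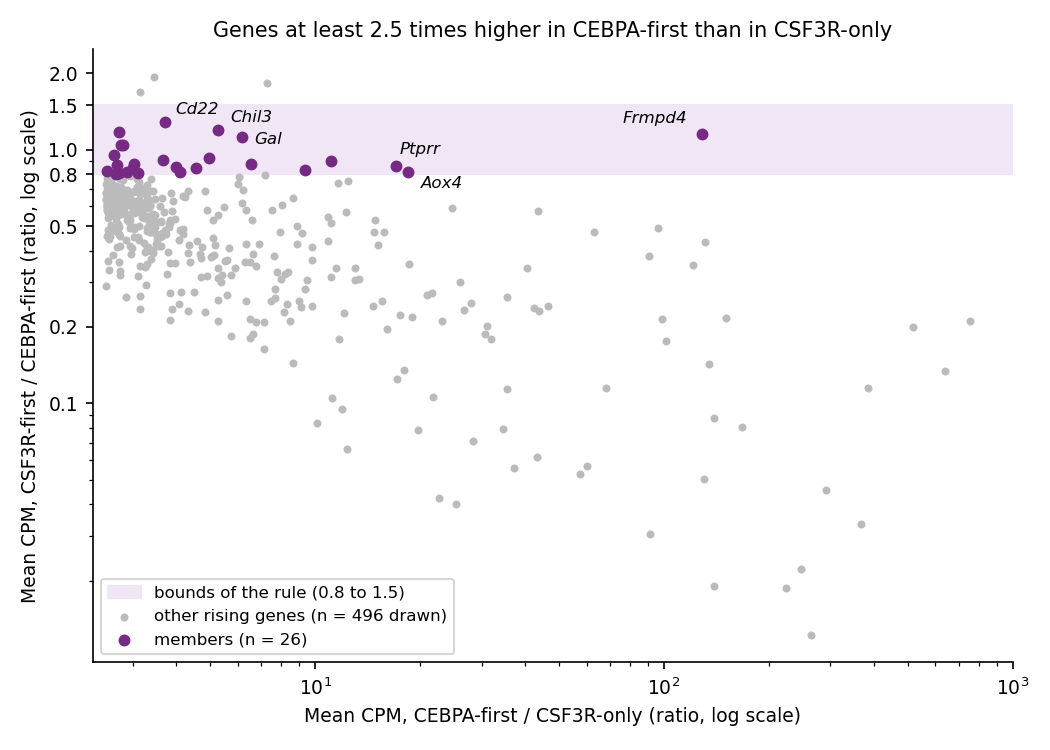
Each point is a gene at least 2.5 times higher in CEBPA-first than in CSF3R-only cells, with that ratio of mean CPM on the horizontal axis and the ratio of CSF3R-first to CEBPA-first mean CPM on the vertical axis (both log scales). The 26 chosen genes (purple) lie in the shaded band from 0.8 to 1.5, and the other 496 genes drawn (grey) lie almost all below it; 3 genes at 0 counts in every CSF3R-only sample have no ratio and are not drawn.

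In edgeR's quasi-likelihood fit of all 3 groups, a gene was called at a Benjamini-Hochberg adjusted p under 0.05 and an absolute log2 fold change of at least 1. All 26 genes passed the filter on low counts, and all 26 were called higher in CEBPA-first than in CSF3R-only cells, where 8.07% of 15703 tested genes were. In CSF3R-first cells 25 of the 26 were called higher than in CSF3R-only cells, against 2.13% of tested genes. The exception was Ada, whose log2 fold change of 0.97 fell short of 1. The lowest CEBPA-first sample lay above the highest CSF3R-only sample in all 26 genes (40.3% of tested genes), and the same held for CSF3R-first against CSF3R-only in all 26 (24.8% of tested genes). These 4 counts follow from the rule and carry no weight of their own, and the rule also held the means of the 2 orders close together. Between CEBPA-first and CSF3R-first cells, 3 of the 26 genes passed an adjusted p of 0.05, where 48.3% of tested genes did, and 9 of the 26 had groups that did not overlap, where 53.4% of tested genes did. The 3 were Ffar2, Piga and Ncapd3. Their number was 6 with a replicate block, 7 without normalization beyond column totals, 2 with only these 2 groups in the fit, 5 without CSF3R-first A, 2 without CEBPA-first A or B and 1 without CSF3R-first C. Of the 9, CSF3R-first lay below CEBPA-first in 8 and above it in 1, Ttc21a.

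Promoters are shown for 4 of the genes, Chil3, Ffar2, Tmem108 and Fbxo27, 4 of the 6 whose promoters hold letters bound by C/EBP or STAT factors; Tmem108 and Fbxo27 hold both. RefSeq promoters of GRCm38.p6, running from 250 bases before to 50 bases after a transcript's start, were found for 23 of the 26 genes (39 promoters). The C/EBP letters TTGCNNAA and the STAT letters TTCNNNGAA, searched on both strands, are in capitals, and each sequence reads 5′ to 3′ on the gene's strand.
Chil3: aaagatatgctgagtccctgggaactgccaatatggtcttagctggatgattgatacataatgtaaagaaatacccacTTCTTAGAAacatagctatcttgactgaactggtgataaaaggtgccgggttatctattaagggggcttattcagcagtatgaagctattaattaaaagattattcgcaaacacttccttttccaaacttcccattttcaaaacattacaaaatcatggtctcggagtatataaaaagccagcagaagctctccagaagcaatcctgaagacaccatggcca
Ffar2: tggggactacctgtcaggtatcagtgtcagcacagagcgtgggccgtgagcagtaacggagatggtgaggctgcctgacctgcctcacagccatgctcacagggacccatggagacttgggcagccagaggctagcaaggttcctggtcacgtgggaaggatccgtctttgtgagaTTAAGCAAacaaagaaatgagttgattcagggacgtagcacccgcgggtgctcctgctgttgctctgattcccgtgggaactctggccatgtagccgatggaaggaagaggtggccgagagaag
Tmem108: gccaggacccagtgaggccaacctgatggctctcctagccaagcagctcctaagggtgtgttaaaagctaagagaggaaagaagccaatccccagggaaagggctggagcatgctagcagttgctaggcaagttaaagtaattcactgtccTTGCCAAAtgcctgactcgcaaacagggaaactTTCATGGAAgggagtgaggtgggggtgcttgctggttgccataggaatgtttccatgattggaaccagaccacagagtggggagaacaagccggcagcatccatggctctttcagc
Fbxo27: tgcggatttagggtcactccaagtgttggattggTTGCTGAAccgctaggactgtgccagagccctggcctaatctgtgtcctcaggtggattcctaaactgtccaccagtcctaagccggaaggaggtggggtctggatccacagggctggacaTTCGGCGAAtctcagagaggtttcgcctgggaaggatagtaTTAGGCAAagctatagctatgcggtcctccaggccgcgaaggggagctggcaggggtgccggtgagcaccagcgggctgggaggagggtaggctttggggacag
The Chil3 sequence (GRCm38.p6 chr3:106167515-106167814, minus strand) holds a STAT match that begins 172 bases before the start. In Ffar2 (chr7:30823726-30824025, minus strand) a C/EBP match begins 74 bases before it. Tmem108 (chr9:103692758-103693057, minus strand, a start inside the annotated gene) holds a C/EBP match 99 bases and a STAT match 66 bases before the start, and Fbxo27 (chr7:28692846-28693145, plus strand) holds C/EBP matches 216 and 54 bases and a STAT match 95 bases before it. C/EBP letters were found for 4 of the 23 genes (17.4%; Fbxo27, Ffar2, Nrg4 and Tmem108), against 12.2% of 27025 genes with a promoter in the table. STAT letters were likewise found for 4 (17.4%; Ada, Chil3, Fbxo27 and Tmem108), against 9.55% of genes. By promoter, C/EBP letters were in 10 of the 39 (25.6%), against 10.8% of 32851 promoters, and STAT letters in 6 of the 39 (15.4%), against 8.30%. The 23 genes had more promoters each than genes at large, so the shares by gene are not on an even footing, and windows of 1 gene, such as the overlapping ones of Fbxo27, can hold the same letters. The palindrome TTGCGCAA, a stricter C/EBP form, was in none of the 23 and in 0.207% of genes. Letters of other factors of myeloid cells were also looked for. Those of MYB, spelled AACNGT, were in promoters of 7 of the 23 genes and 28.9% of all genes. Those of RUNX, spelled TGTGGT, were in 5 (18.9% of all genes), and the PU.1 letters GAGGAAGT were in 2 (3.69% of all genes). The letters AGATAA, which factors of erythroid and mast cells bind, were in 4 (12.7% of all genes). The NF-Y letters CCAAT were in 10 (41.1% of all genes) and the core promoter element TATAAA in 3 (15.7% of all genes). The ETS letters ACCGGAAG (2.60% of all genes) and the E2F letters TTTCCCGC (1.24% of all genes) were in none of the 23. Matches of the different factors can overlap one another, and overlaps were not removed. Letters in a promoter are a description, and these windows do not reach distal enhancers.

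The gene with the highest level of the set, both in CPM and per kilobase of exon, encodes a secreted protein. Chil3 (ENSMUSG00000040809, GRCm38 chr3:106147554-106167564, minus strand) encodes the chitinase-like lectin Ym1, a product of neutrophil precursors and of alternatively activated macrophages. Its level was 1363, 1069, 836 and 1163 CPM in CSF3R-only A to D, 8485, 6137 and 6281 CPM in CSF3R-first A to C and 7146, 5416, 6208 and 4546 CPM in CEBPA-first A to D. Every sample with mutant CEBPA was above every sample without it, and the 2 orders overlapped, with CSF3R-first A the highest sample of all. The mean was 1108 ± 219 CPM (SD, n = 4) in CSF3R-only, 6968 ± 1316 CPM (SD, n = 3) in CSF3R-first and 5829 ± 1109.8 CPM (SD, n = 4) in CEBPA-first cells, ratios to CSF3R-only of 6.29 and 5.26. In CEBPA-first cells this corresponds to 3572 CPM per kilobase of exon, compared with 85.02 for Ada, the next gene on that scale.

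The other secreted products of the set were at far lower levels. Nrg4 (chr9:55220222-55326844, minus strand) encodes a ligand of the ERBB4 receptor of the epidermal growth factor family. It was at 4.67, 4.42, 3.72 and 4.73 CPM in CSF3R-only, 10.9, 9.69 and 8.63 CPM in CSF3R-first and 13.6, 10.9, 12.1 and 11.5 CPM in CEBPA-first samples. CSF3R-first A fell just short of the lowest CEBPA-first sample, and the other CSF3R-first samples were lower still. Gal (chr19:3409915-3414544, minus strand), the neuropeptide galanin, was at 0.242, 0.281, 0.315 and 0.243 CPM in CSF3R-only, 2.79, 1.19 and 1.62 CPM in CSF3R-first and 1.86, 1.25, 1.95 and 1.62 CPM in CEBPA-first samples. The Gal groups with mutant CEBPA overlapped fully, and the ratio of CSF3R-first to CEBPA-first means was 1.12, with CSF3R-first A the highest sample. Tg (chr15:66670753-66850721, plus strand), thyroglobulin, the precursor of thyroid hormone, lay between 1.11 and 1.29 CPM in CSF3R-only, 2.07 and 4.42 CPM in CSF3R-first and 2.16 and 4.28 CPM in CEBPA-first samples, again with overlap of the last pair of groups.

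Several genes encode receptors or other proteins of the cell surface. Ffar2 (chr7:30818348-30823775, minus strand) is the short-chain fatty acid receptor GPR43 of neutrophils and other leukocytes. It was at 47.0, 56.3, 59.8 and 55.4 CPM in CSF3R-only, 137 CPM in each of the 3 CSF3R-first and 167, 159.9, 182 and 171 CPM in CEBPA-first samples. Here the 2 orders did not overlap, and the CSF3R-first samples lay closer together than counting error alone would place them, with a coefficient of variation of 0.0613%. Its log2 difference for CEBPA-first minus CSF3R-first was 0.26 ± 0.07 (SE).

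Btla (chr16:45224315-45257670, plus strand) encodes an inhibitory receptor of lymphocytes that binds the TNF receptor family member HVEM. Its level was 4.06, 3.86, 3.61 and 3.25 CPM in CSF3R-only, 12.5, 14.97 and 9.55 CPM in CSF3R-first and 13.9, 14.2, 12.2 and 13.9 CPM in CEBPA-first samples, and CSF3R-first B was the highest of all. Cd22 (chr7:30865402-30880342, minus strand), a sialic acid-binding lectin that restrains the B cell receptor, was at 1.19, 0.918, 1.10 and 1.11 CPM, 6.51, 4.63 and 4.27 CPM and 4.80, 3.25, 5.28 and 2.68 CPM. Its CSF3R-first mean was 1.28 times its CEBPA-first mean, the highest such ratio in the set, although the groups overlapped. Both genes are best known from lymphocytes. Among lymphocyte markers, Cd3e, Cd8a, Trbc2 and Ncr1 had 0 counts in every sample, and Ms4a1, Pax5 and Ebf1 had group means of at most 0.0163 CPM. Others were at levels like those of Cd22. Cd79b, a chain of the B cell receptor, had means of 3.26 CPM in CSF3R-only, 3.44 CPM in CSF3R-first and 6.32 CPM in CEBPA-first cells, and the adaptor gene Blnk had means of 1.45, 1.04 and 1.54 CPM. For Cd79b the log2 fold change in CEBPA-first cells was 0.82 (edgeR adjusted p = 0.000104), under the limit of 1. Of the 3 tested B cell markers 1, Cd79a, fell in both orders and none rose. The sum of 8 B cell markers was 4.79 to 6.07 CPM in CSF3R-only, 4.13 to 5.55 CPM in CSF3R-first and 7.45 to 8.71 CPM in CEBPA-first samples. CEBPA-first samples thus lay above all CSF3R-only samples, while the CSF3R-first and CSF3R-only ranges overlapped. Of the 2 tested T and NK cell markers, Klrb1c, the NK1.1 antigen, rose in CEBPA-first cells by 3.09 on the log2 scale (adjusted p = 0.000389) to a mean of 0.674 CPM, and Cd3d fell. The sum of 8 T and NK cell markers was 0.273 to 0.619, 0.290 to 0.564 and 0.540 to 0.924 CPM in the 3 groups. What part lymphoid cells had in the Btla and Cd22 values was not tested.

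Klrg2 (chr6:38625693-38637242, minus strand), a lectin-like receptor gene of the killer cell family, lay between 1.77 and 2.08 CPM in CSF3R-only, 3.74 and 6.35 CPM in CSF3R-first and 4.58 and 5.53 CPM in CEBPA-first samples. BC035044 (chr6:128849090-128891126, minus strand), which lies among C-type lectin genes on chromosome 6, was at 27.8, 37.0, 30.1 and 32.9 CPM in CSF3R-only, 60.9, 81.7 and 64.5 CPM in CSF3R-first and 89.3, 93.2, 75.0 and 86.1 CPM in CEBPA-first samples. CSF3R-first B was within the CEBPA-first range and the other CSF3R-first samples were below it, and the ratio of means of 0.804 was the lowest that the rule let in. Tmem108 (chr9:103482947-103761837, minus strand), a transmembrane protein studied mainly in neurons, lay between 0.727 and 1.06 CPM, 3.33 and 4.11 CPM and 3.86 and 4.54 CPM in the 3 groups, and Slc32a1 (chr2:158610767-158615748, plus strand), the vesicular transporter of GABA and glycine in inhibitory neurons, between 0.804 and 1.005 CPM, 5.91 and 7.70 CPM and 8.21 and 8.66 CPM. In Slc32a1 the CSF3R-first samples all lay below the CEBPA-first samples and well above the highest CSF3R-only sample.

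**Figure D2:**
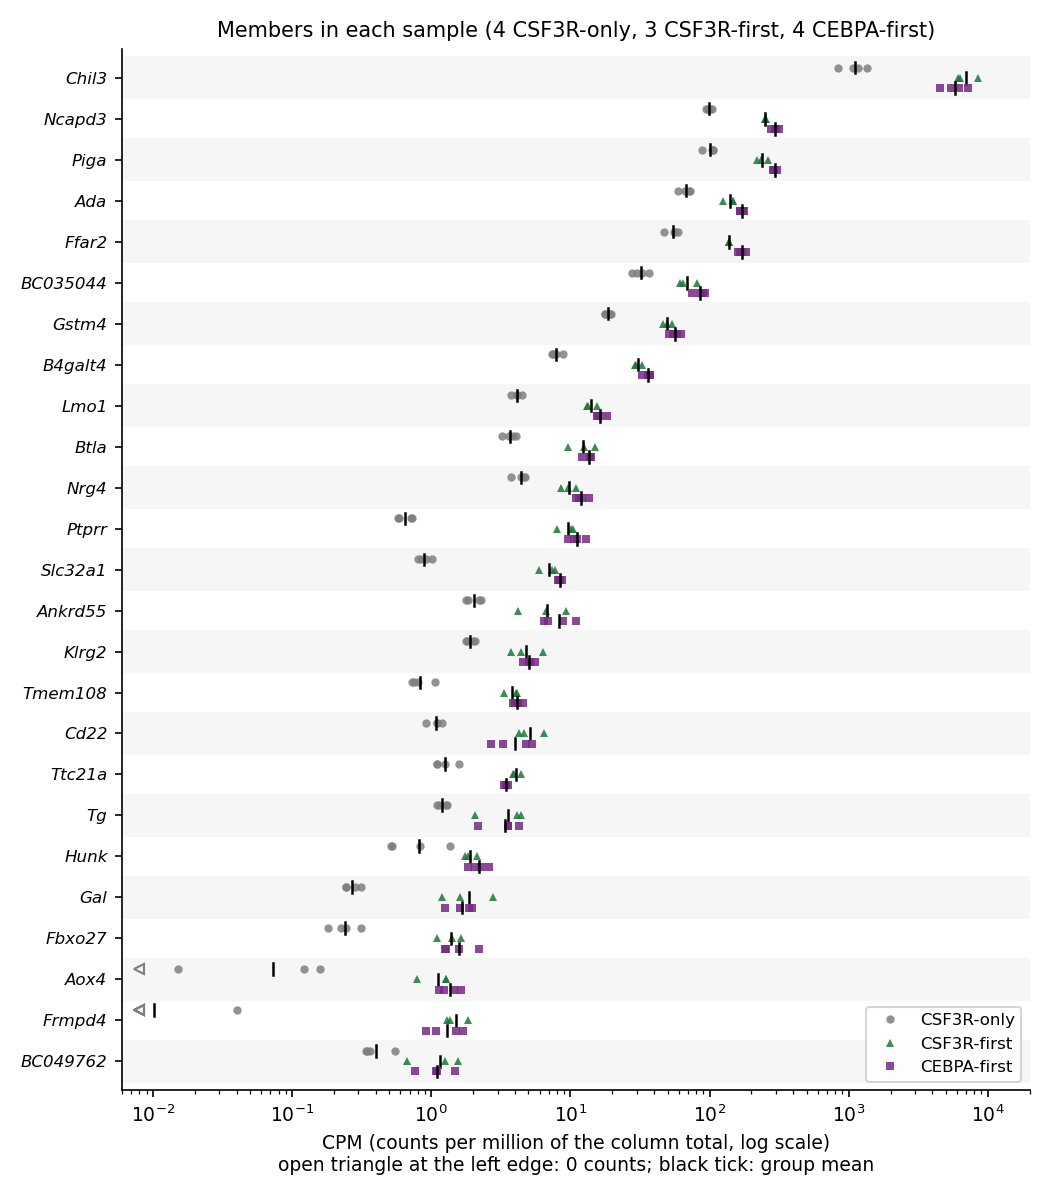
CPM (log scale) of 25 of the 26 genes in each sample, in the order of their CEBPA-first mean: grey circles are CSF3R-only, green triangles CSF3R-first and purple squares CEBPA-first samples, black ticks are group means, and an open triangle at the left edge is a sample with 0 counts. In every row all green and purple points lie to the right of all grey ones, while green and purple overlap in 16 of 25 rows.

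Among the enzymes, Ada, Piga and Gstm4 had the highest levels per kilobase of exon, 85.02, 45.9 and 33.1 CPM in CEBPA-first cells. Ada (chr2:163726584-163750239, minus strand) deaminates adenosine and deoxyadenosine. It was at 71.4, 72.1, 59.3 and 66.9 CPM in CSF3R-only, 147, 146 and 125 CPM in CSF3R-first and 177, 173, 167 and 164 CPM in CEBPA-first samples, so that the 3 groups formed 3 separate steps. Piga (chrX:164419787-164433916, plus strand) encodes the catalytic subunit of the first step of glycosylphosphatidylinositol (GPI) anchor synthesis. Its values of 89.0, 106, 107 and 103 CPM, 218, 265 and 236 CPM and 293, 306, 285 and 289 CPM formed the same 3 steps, and its log2 difference between the orders was 0.25 ± 0.08 (SE). Gstm4 (chr3:108040408-108044894, minus strand), a mu-class glutathione S-transferase, was at 17.8, 19.4, 19.6 and 17.9 CPM, 53.4, 49.6 and 46.4 CPM and 58.5, 54.4, 62.3 and 51.0 CPM, with CSF3R-first A inside the CEBPA-first range.

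B4galt4 (chr16:38742264-38769049, plus strand), a beta-1,4-galactosyltransferase of the Golgi, was at 7.82, 8.90, 7.47 and 7.34 CPM in CSF3R-only, 29.7, 32.7 and 29.0 CPM in CSF3R-first and 37.1, 36.2, 37.4 and 32.8 CPM in CEBPA-first samples. The highest CSF3R-first sample of B4galt4 fell just short of the lowest CEBPA-first sample. Aox4 (chr1:58210397-58268597, plus strand), a molybdenum-containing aldehyde oxidase, was barely detected without mutant CEBPA, at 0.121, 0, 0.158 and 0.0152 CPM in CSF3R-only samples, and was at 0.794, 1.27 and 1.28 CPM in CSF3R-first and 1.23, 1.64, 1.45 and 1.13 CPM in CEBPA-first samples. The ratio of the Aox4 means to CSF3R-only was 15.2 and 18.5.

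The signalling proteins of the set included Frmpd4 and Ptprr, with 2 of the 3 largest ratios to CSF3R-only, the third being that of Aox4. Ptprr (chr10:116018213-116274932, plus strand) is a receptor-type tyrosine phosphatase that acts on MAP kinases. It was at 0.727, 0.712, 0.591 and 0.576 CPM in CSF3R-only, 10.4, 8.06 and 10.1 CPM in CSF3R-first and 11.2, 10.6, 12.9 and 9.69 CPM in CEBPA-first samples, 14.6 and 17.0 times the CSF3R-only mean. The last pair of groups overlapped. Hunk (chr16:90386013-90499553, plus strand), a serine/threonine kinase of the AMPK-related family, was much less distinct, between 0.516 and 1.37 CPM in CSF3R-only, 1.75 and 2.13 CPM in CSF3R-first and 1.83 and 2.59 CPM in CEBPA-first samples. Frmpd4 (chrX:167471309-168577231, minus strand), a scaffold protein of synapses, had 2 counts in all 4 CSF3R-only samples together, both in sample A. It was at 1.84, 1.29 and 1.38 CPM in CSF3R-first and 1.51, 0.922, 1.69 and 1.08 CPM in CEBPA-first samples. Pooled over samples, the ratio to CSF3R-only was 165 (45.1 to 1368) for CSF3R-first and 139.7 (38.3 to 1159) for CEBPA-first cells (exact 95% intervals, counting error only). Ankrd55 (chr13:112288451-112384002, plus strand), an ankyrin repeat protein, was at 1.78, 2.27, 2.21 and 1.85 CPM in CSF3R-only, 6.72, 4.24 and 9.28 CPM in CSF3R-first and 8.84, 6.94, 10.9 and 6.48 CPM in CEBPA-first samples, and the spread among CSF3R-first samples covered most of the CEBPA-first range.

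A pair of genes act in the nucleus. Ncapd3 (chr9:27030175-27095315, plus strand) encodes a subunit of condensin II, which compacts chromosomes before and during mitosis. It was at 94.7, 97.5, 101 and 104 CPM in CSF3R-only, 251, 254 and 249 CPM in CSF3R-first and 317, 296, 302 and 276 CPM in CEBPA-first samples, 3 tight and separate groups with a log2 difference of 0.20 ± 0.07 (SE) between the orders. Lmo1 (chr7:109138572-109175207, minus strand), a LIM-only transcriptional cofactor that is an oncogene in T cell leukemia, was at 4.16, 4.10, 3.74 and 4.52 CPM, 15.5, 13.1 and 13.4 CPM and 18.2, 16.1, 15.8 and 15.6 CPM. CSF3R-first A again came close to the lowest CEBPA-first samples without passing them.

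The remaining 3 genes have less defined roles in blood cells. Ttc21a (chr9:119937606-119967793, plus strand), a tetratricopeptide repeat protein of cilia, was at 1.60, 1.26, 1.10 and 1.11 CPM in CSF3R-only, 4.41, 3.92 and 3.86 CPM in CSF3R-first and 3.58, 3.32, 3.48 and 3.46 CPM in CEBPA-first samples. It was the gene of the set in which every CSF3R-first sample was above every CEBPA-first sample. Fbxo27 (chr7:28692849-28699338, plus strand), an F-box protein that recognises glycoproteins for ubiquitination, lay between 0.182 and 0.315 CPM in CSF3R-only, 1.11 and 1.63 CPM in CSF3R-first and 1.25 and 2.19 CPM in CEBPA-first samples. BC049762 (chr11:51253651-51263046, minus strand) lay between 0.337 and 0.552 CPM, 0.668 and 1.55 CPM and 0.766 and 1.48 CPM, and CSF3R-first B was close to the highest CSF3R-only sample.

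The 26 genes were spread over 14 chromosomes, with 4 on chromosome 7, 4 on chromosome 9 and 3 on chromosome 16. In CEBPA-first cells 5 were at 100 CPM or more, 8 between 10 and 100 CPM and 13 below 10 CPM. In 7 the CSF3R-first mean was above the CEBPA-first mean. Several genes share exonic sequence with an overlapping gene, and the counting strand is not given in the sources used here, so that reads from the shared stretch cannot be assigned with certainty. The share of exonic bases was 24.9% for Slc32a1, 15.6% for Tmem108, 10.96% for Ptprr, 9.50% for Cd22, 8.97% for Nrg4 and 5.61% for Aox4.

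The genes nearest the limits show how the edge of the set was drawn. At the limit of 2.5 times CSF3R-only, Ada (2.52), Klrg2 (2.65) and BC035044 (2.69) were just inside, and Mogat2 (2.45), Nt5c3b (2.41) and Spaca9 (2.38) were just outside. Near the ratio of 0.8 between the orders, BC035044 (0.804), Ffar2 (0.807) and Nrg4 (0.812) were inside and Agps (0.798), Ddx4 (0.792) and Pwp1 (0.788) were outside. Towards the ratio of 1.5, Cd22 (1.28), Chil3 (1.195) and Ttc21a (1.18) were the highest inside, and Svep1 (1.69), Teddm3 (1.83) and Clec4b2 (1.93) were above the limit. By level, BC049762 (1.11 CPM), Frmpd4 (1.30 CPM) and Aox4 (1.36 CPM) were the lowest inside, and Lcn4 (0.876 CPM), Rgs8 (0.761 CPM) and Antxr1 (0.754 CPM) were left out. Values ran on without a gap across the limits of 2.5 and 0.8.

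The position of each CSF3R-first sample between the other groups is given as a description, since the rule used these values. On a log2(CPM + 0.05) scale in which the CSF3R-only mean is 0 and the CEBPA-first mean is 1, the median position of the 26 genes was 0.939 in CSF3R-first A, 0.885 in B and 0.936 in C. Over the 499 other genes at least 2.5 times higher in CEBPA-first cells, the median position was 0.293 in A, 0.614 in B and 0.552 in C. Sample A was the lowest of its group in 370 of those 499 genes (74.1%), and in 6 of the 26, where it was the highest in 13. The limit of 0.8 on the CSF3R-first mean acts on these figures, since a gene that is low in A alone can fall below it, and without A the rule took in 10 further genes. The contrast with the 499 genes that failed the limits therefore restates the rule. Among CEBPA-first samples, D was the lowest in 13 of the 26 genes (22.9% of all tested genes) and C the highest in 12 (25.1% of all tested genes). The median coefficient of variation of the 26 genes was 11.4% among CSF3R-only, 13.6% among CSF3R-first and 8.91% among CEBPA-first samples, against 10.2%, 13.9% and 8.70% over all tested genes.

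When the rule was applied again with 1 sample left out, it returned 24 to 33 genes, 22 to 26 of them shared with the set, and the sample left out could be read on genes it had not chosen. The CEBPA-first samples read in this way had medians of 2.99 to 4.23 times the CSF3R-only mean, and single genes went down to 1.79 times it. The CSF3R-first samples had medians of 3.32 (A), 3.13 (B) and 3.11 (C) times it, over 33, 28 and 24 genes. Of these genes 24, 22 and 21 were more than 2 times the CSF3R-only mean in the sample left out, as were 1.84%, 3.33% and 2.55% of all 10934 protein-coding genes with a CEBPA-first mean of at least 1 CPM. With CSF3R-only A to D left out in turn, 3 of 27, 1 of 28, 1 of 25 and 0 of 26 genes were so in the sample left out. Of the same 10934 coding genes 0.110%, 0.110%, 0.229% and 0.101% were so in these samples. For the CSF3R-first samples the lowest were at 1.003, 0.974 and 1.86 times it. The medians share the CSF3R-only samples, which also chose the genes, and are not independent of each other. Without CSF3R-first A the rule found 33 genes, 23 of them shared with the set. Across the samples left out in turn 15 of the 26 genes were always chosen.

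Genes beside the 26 on the chromosome were not used by the rule and could be tested. The nearest protein-coding gene on each side gave 52 neighbours, none of them in the set, of which 34 were tested. In CEBPA-first against CSF3R-only cells 7 of the 34 rose (20.6%) and 3 fell (8.82%), where 8.07% of all tested genes rose and 19.0% fell. In CSF3R-first against CSF3R-only cells 4 rose (11.8%) and 1 fell (2.94%), where 2.13% and 4.53% of all tested genes did. The 4 were Gstm1, Chil4, Fbxo17 and Mag. Gstm1, Chil4 and Fbxo17 share a name stem with the gene beside them and are counted again among the relatives below. Chil4 passed the low-count filter only through groups where it was higher, so its calls are descriptions. The neighbours' median log2 fold change was 0.33 and 0.18 in the 2 comparisons, beside a median of -0.0045 and -0.022 over all tested genes. Most neighbours were therefore not called in either comparison.

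Gstm1, the neighbour of Gstm4 and also a mu-class glutathione S-transferase, rose most. It went from 103 ± 5.48 CPM in CSF3R-only to 958 ± 75.5 CPM in CSF3R-first and 1277 ± 102 CPM in CEBPA-first cells (SD, n = 4, 3 and 4), log2 fold changes of 3.14 and 3.50 (edgeR adjusted p = 3.13e-09 and 1.13e-10). Its level between the orders differed by 0.36 on the log2 scale (adjusted p = 0.00978). Chil4, the chitinase-like neighbour of Chil3, rose by 2.10 in CEBPA-first and 2.78 in CSF3R-first cells on the log2 scale (edgeR adjusted p = 0.0041 and 0.00211), from a mean of 0.0512 CPM. Its transcript matches that of Chil3 at 94.3% of 1540 aligned bases, and how many Chil4 reads came from the far more abundant Chil3 was not tested. Fbxo17, beside Fbxo27, went from 0.797 ± 0.147 to 2.58 ± 0.538 and 4.36 ± 0.544 CPM, log2 fold changes of 1.63 and 2.33 in CSF3R-first and CEBPA-first cells (adjusted p = 0.000121 and 3.22e-07). Ccn5, a secreted matrix protein gene next to Ada, moved the other way and fell by 4.50 in CEBPA-first and by 1.39 in CSF3R-first cells on the log2 scale (adjusted p = 1.29e-08 and 0.000583).

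Ffar2 and Cd22 lie 41.6 kb apart on chromosome 7, the closest pair of the set, and were chosen for a closer view after their values were seen. Within 100 kb of them were 16 protein-coding genes, themselves included, of which 10 were tested. Mag, which encodes a sialic acid-binding lectin of myelin and lies beside Cd22, rose in CSF3R-first cells by 1.11 on the log2 scale (adjusted p = 0.000271), from 2.06 ± 0.317 CPM in CSF3R-only to 4.73 ± 0.549 CPM in CSF3R-first cells. In CEBPA-first cells its mean was 3.90 ± 0.339 CPM and its log2 fold change was 0.78, under the limit of 1. Atp4a, a subunit of the gastric proton pump, rose by 1.41 in CSF3R-first cells and stood at 0.97 in CEBPA-first cells (adjusted p = 0.00234 and 0.0068). Fam187b at the other end fell by 1.82 in CEBPA-first cells (adjusted p = 4.44e-05). Ffar1 and Ffar3, the fatty acid receptors next to Ffar2, were at or below 0.0796 CPM on average in every group and were not tested. Genes around the pair thus did not share one direction.

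**Figure D3:**
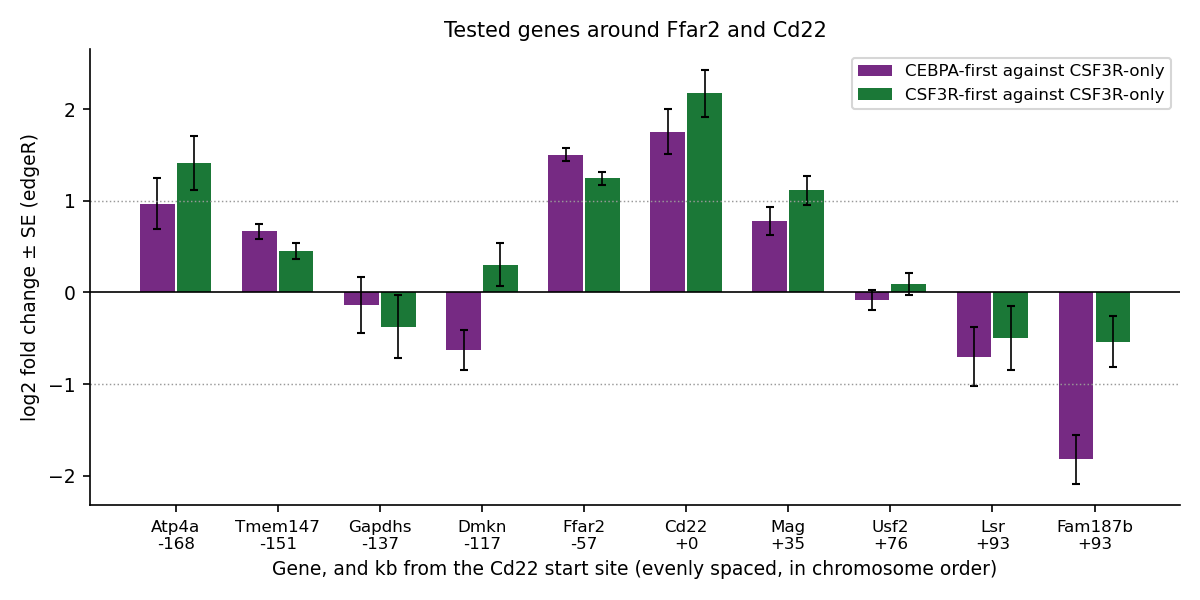
log2 fold change against CSF3R-only (bars, with SE) of the 10 tested genes around Ffar2 and Cd22 in chromosome order, for CEBPA-first (purple) and CSF3R-first (green), with the distance in kb from the Cd22 start site under each name and dotted lines at the limits of 1 and -1. Ffar2 and Cd22, chosen by the rule, are above 1 in both; Mag and Atp4a are above 1 in CSF3R-first and under 1 in CEBPA-first cells, and Fam187b is below -1 in CEBPA-first cells.

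Genes sharing a name stem with one of the 26, such as Gstm, Chil, Aox, Nrg, Ttc or Fbxo, numbered 109, of which 75 were tested. In CEBPA-first cells 14 of the 75 rose (18.7%) and 11 fell (14.7%), and in CSF3R-first cells 5 rose (6.67%) and none fell, where 8.07%, 19.0%, 2.13% and 4.53% of all tested genes did. Their median log2 fold change was 0.06 and 0.02. The 5 that rose in both were Gstm1, Chil4, Nrg2, Fbxo17 and Ttc25. Nrg2, another ligand of ERBB receptors, went from 2.23 ± 0.333 CPM in CSF3R-only to 9.54 ± 1.32 CPM in CSF3R-first and 13.8 ± 1.41 CPM in CEBPA-first cells, log2 fold changes of 2.01 and 2.499 (adjusted p = 5.17e-07 and 3.83e-09). Ttc25, at a mean of 0.131 CPM in CSF3R-only cells, had log2 fold changes of 1.41 and 2.22 (adjusted p = 0.00584 and 2.47e-05). Like Chil4, it passed the low-count filter only through groups where it was higher, so the calls of both are descriptions. Other relatives went opposite to the gene of the set. Chil1, which encodes a chitinase-like protein of neutrophil granules, fell from 789 ± 102 CPM in CSF3R-only to 53.7 ± 7.29 CPM in CEBPA-first cells (log2 fold change -4.01, adjusted p = 2.63e-09), with 512 ± 135 CPM in CSF3R-first cells. Aox1 fell from 2.15 ± 0.234 to 0.160 ± 0.139 CPM in CEBPA-first cells (log2 fold change -3.92, adjusted p = 1.16e-06), and Ttc36 fell by 3.29 on the log2 scale (adjusted p = 0.000148). The mean of Ttc36 in CEBPA-first cells was 0.0225 CPM, below the limit that a count of 0 allows. The size of its fall thus rests on few counts, and it passed the low-count filter only through groups where it was higher.

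**Figure D4:**
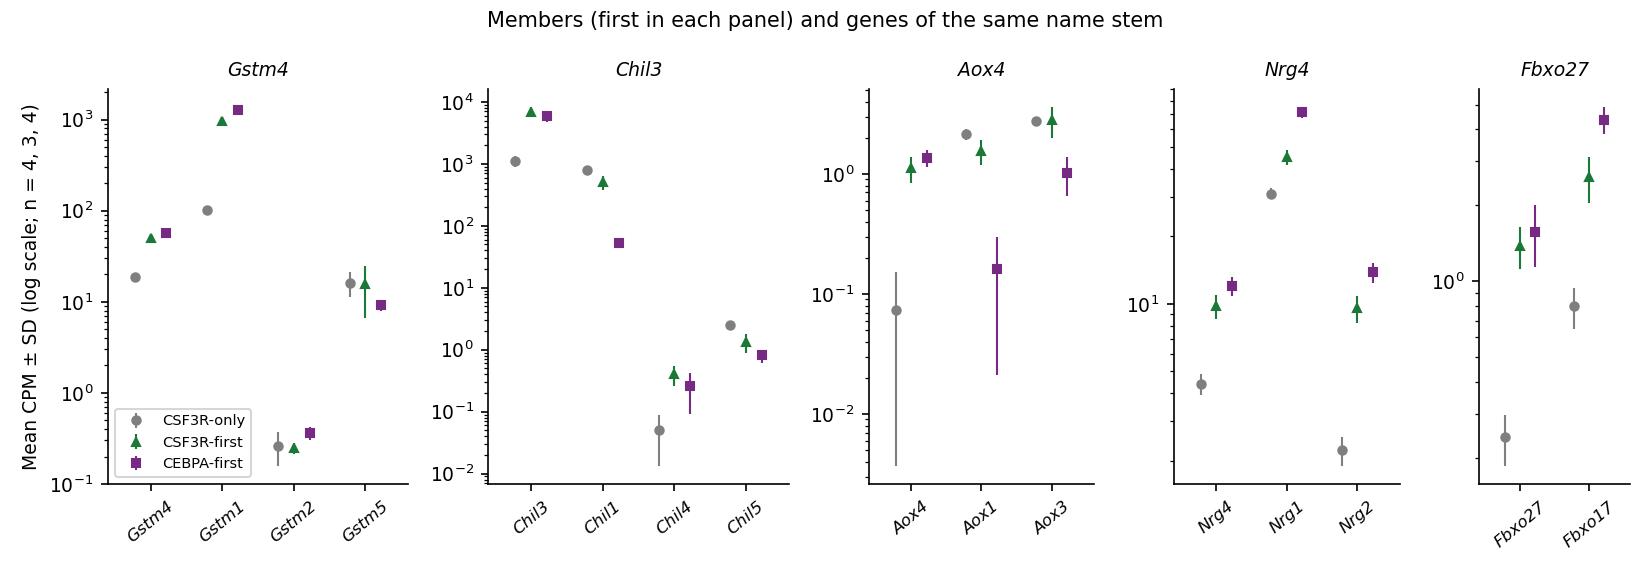
Mean CPM (log scale) with SD of 5 genes of the set, the first in each panel, and of genes with the same name stem, in CSF3R-only (grey, n = 4), CSF3R-first (green, n = 3) and CEBPA-first (purple, n = 4) cells; a lower bar that would pass 0 is cut at 5% of the mean. Gstm1, Nrg2, Chil4 and Fbxo17 rose in both orders, whereas Chil1 and Aox1 fell in CEBPA-first cells.

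Pathway lists were counted without the genes of the set. The lists of primary granule, ether lipid, reelin, aldo-keto reductase and C/EBP genes hold none of the 26, and the others are built around 1 of them. Each list is given with its median log2 fold change in CEBPA-first and then CSF3R-first cells, set against -0.0045 and -0.022 over all tested genes. Counts of genes that rose or fell stand beside those of all tested genes, of which 8.07% rose and 19.0% fell in CEBPA-first and 2.13% rose and 4.53% fell in CSF3R-first cells; in lists this short, 1 gene called is near those shares and is not a result about the list. Chil4, Chit1, Ctla4, Galr2, Dab1, Akr1c18, Gad1 and Btc, like the relative Ttc25 and the marker Klrb1c, were so low in CSF3R-only cells that they passed the low-count filter only through a group where they were higher, so that their calls are descriptions. Among 11 tested genes listed under primary granules (median log2 fold change 0.30 and 0.37), 3 rose and 3 fell in CEBPA-first cells and 1 rose in CSF3R-first cells. The list is not confined to genes of these granules, Hp and Nkg7 being known from others. Mpo, Elane, Prtn3 and Ctsg, enzymes of these granules, stood at log2 fold changes of 0.88, 1.27, 1.51 and 1.40 in CEBPA-first cells. The genes that fell were Fcnb, Nkg7 and Hp. Prtn3, the serine protease proteinase 3, rose in both, from 431 ± 42.4 to 1005 ± 52.3 and 1348 ± 63.1 CPM (log2 fold changes 1.14 and 1.51, adjusted p = 1.88e-06 and 7.64e-09), whereas the lectin gene Fcnb and the haptoglobin gene Hp fell by 3.54 and 2.06 in CEBPA-first cells (adjusted p = 3.93e-08 and 2.23e-07). Of the 4 other tested chitinase-like genes (median log2 fold change 0.17 and 1.04) 2 rose in both, Chil4 and Chit1, and 2 fell in CEBPA-first cells, Chil1 and Chil5 (Chil5 log2 fold change -1.76, adjusted p = 2.06e-05). Chit1, an active chitinase of macrophages, had a mean of 0.117 CPM in CSF3R-only, 2.41 CPM in CSF3R-first and 0.976 CPM in CEBPA-first cells, and its log2 fold change of 4.25 in CSF3R-first and 2.88 in CEBPA-first cells (adjusted p = 1.02e-05 and 1.74e-05) left a difference of -1.37 for CEBPA-first minus CSF3R-first (adjusted p = 0.00323).

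Around Btla, 3 of 13 other coinhibitory genes (median log2 fold change -0.81 and -0.39) rose (23.1%, against 8.07% of all tested genes) and 5 fell (38.5%, against 19.0%) in CEBPA-first cells, and 1 rose and 1 fell in CSF3R-first cells. Pdcd1, the receptor PD-1, went from 0.879 ± 0.189 CPM to 5.50 ± 1.68 CPM in CSF3R-first and 27.3 ± 4.68 CPM in CEBPA-first cells (log2 fold changes 2.59 and 4.84, adjusted p = 1.73e-05 and 3.86e-09), and the orders differed by 2.25 (adjusted p = 8.78e-06). Ctla4 rose in CEBPA-first cells by 4.54 (adjusted p = 1.99e-05) to a mean of 0.998 CPM, and the ligand gene Cd274 fell by 2.21 (adjusted p = 4.98e-11). Among 6 other Siglecs, the family of Cd22 (median log2 fold change -1.42 and -0.52), 4 fell and none rose in CEBPA-first cells, and 1 rose (Mag) and 1 fell (Siglec1) in CSF3R-first cells. Cd33 fell by 1.92, Siglece by 1.83 and Siglec1 by 1.43 in CEBPA-first cells (adjusted p = 2.36e-07, 6.35e-08 and 0.000146). Cd22, chosen for being higher, stood opposite to these myeloid Siglecs.

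Of 8 other genes of molybdenum enzymes or of the making of their cofactor (median log2 fold change -1.22 and -0.45), none rose and 4 fell in CEBPA-first cells and none was called in CSF3R-first cells. Of the 4, Aox1 and Aox3 are aldehyde oxidases like Aox4, and Mocos and Mocs1 serve the cofactor. Besides Aox1, Mocos fell by 2.16 and Aox3 by 1.56 (adjusted p = 2.18e-07 and 0.000118). Around Gal, 2 genes were tested (median log2 fold change 0.42 and 0.17): the receptor gene Galr2 rose in CEBPA-first cells by 1.35 (adjusted p = 0.0107) to a mean of 0.295 CPM, and Spx was not called (log2 fold changes -0.52 and 0.33). Of the 7 genes of the C/EBP family (median log2 fold change -0.95 and -0.52), 3 fell in CEBPA-first cells and none was called in CSF3R-first cells, with Cebpb falling by 1.69 (adjusted p = 6.90e-07). Cebpa and Cebpz stood at positive log2 fold changes of 0.93 and 0.77 in CEBPA-first cells, under the limit of 1 (adjusted p = 1.23e-07 and 1.31e-06). Whether part of the Cebpa reads came from the vector insert was not tested. In ether lipid synthesis 2 of 9 genes (median log2 fold change 0.54 and 0.22) rose in both orders, Far2 (log2 fold changes 2.03 in CSF3R-first and 3.06 in CEBPA-first cells; adjusted p = 2.76e-08 and 1.13e-10) and Agps (1.02 and 1.30; adjusted p = 2.57e-05 and 1.48e-07), the enzyme that forms the ether bond, while Tmem189 fell in CEBPA-first cells by 1.01 (adjusted p = 7.30e-07). Among 8 genes of the reelin pathway (median log2 fold change -0.25 and -0.19) Dab1 was called higher in both orders, from 3 counts in all CSF3R-only samples to means of 0.384 CPM in CSF3R-first and 0.373 CPM in CEBPA-first cells (adjusted p = 7.15e-05 and 5.36e-06), pooled ratios of 27.8 (9.07 to 138) and 26.9 (8.91 to 133) with exact 95% intervals for counting error. In the same pathway Lrp8 rose in CEBPA-first cells by 1.10 and Dab2 fell by 2.56 (adjusted p = 1.21e-07 and 3.50e-06). In the 8 aldo-keto reductases (median log2 fold change 0.53 and 0.11) Akr1c18 rose from 0.114 CPM to 18.1 ± 5.56 CPM in CSF3R-first and 85.7 ± 16.2 CPM in CEBPA-first cells (log2 fold changes 7.27 and 9.45, adjusted p = 6.04e-08 and 4.13e-10), Akr1c13 rose in CEBPA-first cells by 1.12 and Akr1b8 fell by 2.18 (adjusted p = 1.08e-07 and 7.45e-06).

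Lists built on the roles of single genes of the set were drawn up after the set was known. Their counts stand beside the same shares, 8.07% higher and 19.0% lower in CEBPA-first and 2.13% and 4.53% in CSF3R-first cells over all tested genes. None of the 7 other condensin subunits (median log2 fold change 0.75 and 0.49) reached the limit of 1, but all 7 had positive log2 fold changes past the adjusted p, of 0.49 to 0.93 in CEBPA-first (adjusted p of at most 4.06e-06) and 0.31 to 0.59 in CSF3R-first cells (at most 0.00152). By the adjusted p alone 35.4% and 21.6% of all tested genes were higher in the 2 comparisons. None of the 6 other genes of the first GPI step (median log2 fold change 0.14 and -0.04) was called in either comparison. Around Ada, none of 10 genes of purine nucleoside metabolism (median log2 fold change -0.00 and -0.01) rose in either order, while Ampd3 fell in both (log2 fold changes -3.18 in CEBPA-first and -1.39 in CSF3R-first cells, adjusted p = 4.09e-08 and 0.000391) and Nt5e fell in CEBPA-first cells by 1.76 (adjusted p = 3.30e-08). Both other tested receptors of fatty or hydroxycarboxylic acids (median log2 fold change -2.66 and -0.76) fell in CEBPA-first cells, Hcar2 by 3.81 and Gpr84 by 1.51 (adjusted p = 1.04e-08 and 4.29e-07), opposite to Ffar2. Around Ptprr, 7 of 10 other MAP kinase phosphatase genes (median log2 fold change -1.28 and -0.69) fell (70.0%, against 19.0% of all tested genes) and none rose in CEBPA-first cells, and 3 fell in CSF3R-first cells (30.0%, against 4.53%). Ptpn5, the close relative of Ptprr, fell by 4.78 and Dusp6 by 2.85 in CEBPA-first cells (adjusted p = 9.05e-07 and 3.13e-08). Ptpn5 was at 0.0877, 0.0348, 0.0402 and 0.0138 CPM in CEBPA-first A to D, close to the limit that a count of 0 allows. The size of its fall thus rests on few counts, and it passed the low-count filter only through groups where it was higher. Of 9 other ERBB ligands and receptors (median log2 fold change 0.73 and 0.08) 4 rose and 1 fell in CEBPA-first cells and 1, Nrg2, rose in CSF3R-first cells. Btc, 1 of the 4, passed the low-count filter only through CEBPA-first cells, where it was higher, so its call is a description. B4galt6, 1 of 5 other galactosyltransferases (median log2 fold change -0.32 and -0.14), and Lmo2, 1 of 5 other LMO factors and partners (median log2 fold change 0.21 and 0.10), rose in CEBPA-first cells. In the 4 other genes of GABA handling (median log2 fold change -0.17 and -0.07) 1 was called higher in both orders, Gad1, which was at 0 counts in every CSF3R-only sample and, close to the limit that a count of 0 allows in CSF3R-first cells, at means of 0.0765 and 0.374 CPM in CSF3R-first and CEBPA-first cells, and 1, Slc6a13, fell in CEBPA-first cells.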

How the data were processed

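The authors deposited whole-number read counts per gene, not normalized, made after alignment with STAR to mm10 according to their processing notes; the counting tool, annotation and strand setting are not given in the sources used here. Gene names, types and coordinates came from GENCODE mouse release 21 (GRCm38), which lacked an entry for 193 IDs holding at most 0.00896% of a sample's counts. Depth was 47905747 to 72268346 counts per sample. CPM were computed here from column totals, and SD from the samples of a group. All 11 samples were fitted together with edgeR 4.0.16 (R 4.3.3): TMM scaling, filterByExpr (15703 genes), glmQLFit and glmQLFTest, Benjamini-Hochberg adjustment over all tested genes, and calls at an adjusted p under 0.05 and an absolute log2 fold change of at least 1. DESeq2 1.42.0 was an alternative. On counts simulated for these 15703 genes the edgeR step recovered 99 of 100 genes changed by 1.5 and 100 of 100 changed by 2.5 (log2) in CEBPA-first against CSF3R-only. Changed genes were drawn only from those with an average log2 CPM above 1. Recovery needed the adjusted p and the right direction, not the fold limit. As many genes were raised as lowered, whereas the data gave 1268 calls higher and 2976 lower. The simulation therefore says nothing about genes at lower levels.

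The members and lists were chosen with earlier results of these data known. Neighbours, relatives and list genes were named by size of change (log2 fold change of at least 2 for neighbours and relatives, the 3 largest of each list); Mag, Atp4a, Fam187b and genes of the lists built on single roles were named after their values were seen. Other settings, left-out samples and a replicate block were also tried. No sample was left out of the fit reported. The values of 1 of the 26 genes are not reported here, though it is included in the counts.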

Additional observations from a re-analysis of the deposited data

Results flagged for a closer look

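Among 25 of the 26 genes, 50 sets of 4 values (4 samples of CSF3R-only or CEBPA-first cells) were screened for 1 sample far from the rest, by the gap to its nearest neighbour over the whole range, against Dixon's 95% critical value. Chance alone gives about 1 in 20, or 2.5 of the 50, and 3 were found. Btla was at 12.2 CPM in CEBPA-first C, below the next sample at 13.9 CPM (0.846 of the range). BC049762 was at 0.552 CPM in CSF3R-only C, above the next sample at 0.364 CPM (0.876 of the range). Frmpd4 was at 0.0404 CPM in CSF3R-only A and at 0 in the other CSF3R-only samples, a difference of 2 counts. In Btla, BC049762 and Frmpd4 alike, all samples with mutant CEBPA still lay above all CSF3R-only samples.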

How the results depend on the processing

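Of the 26 genes, 24 to 26 were called higher in CEBPA-first and 23 to 26 in CSF3R-first against CSF3R-only cells under every setting tried, and no direction reversed. Genes past the adjusted p between the orders numbered 3, but 7 without normalization beyond column totals, 5 with a filter of at least 1 count, 6 with a replicate block, and 1 to 5 when 1 replicate was left out (1 without CSF3R-first C, 5 without CSF3R-first A). On the adjusted p alone 35.4% of all tested genes rose in CEBPA-first and 21.6% in CSF3R-first cells. Among 34 neighbours, 7 rose in CEBPA-first cells, and 19 on the adjusted p alone and 11 of 69 with the nearest 2 genes on each side; 4 rose in CSF3R-first cells, and 14 on the adjusted p alone. Among 75 relatives, 14 rose in CEBPA-first cells, and 29 on the adjusted p alone and 7 of 15 without the Ttc and Fbxo stems; 5 rose in CSF3R-first cells, and 20 on the adjusted p alone, 3 with at least 10 counts in every sample and 3 without those stems, a setting added after seeing the data. In the pathway lists 11 genes were called in CSF3R-first cells, and 6 with at least 10 counts in every sample. The call rule, the filters, the number of neighbours and the stems change how many genes are tested or pass; for normalization, the block and left-out replicates the cause was not tested. Without normalization the median of all genes moved by 0.13 in CEBPA-first and 0.09 in CSF3R-first cells, and over all genes the calls in CEBPA-first cells went from 1268 higher and 2976 lower to 1754 and 2610.

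The same-letter samples correlated between -0.11 and 0.36 in 10 pairs, over 0.1 in 7, and 12 of 20 comparisons were best with their own letter, a hint of pairing from the data, not the design. As the labels name none and 3 pairs were under 0.1, the letters were not taken as a pairing; the block left 26 and 25 calls against CSF3R-only. The rule itself gave 23 genes on TMM-scaled and 24 on DESeq2-scaled values, 20 and 22 of them shared, and 27 with group medians. Calls of some single genes turned on the fold limit of 1. In CSF3R-first cells the log2 fold change of BC035044 was 0.97, 0.98 and 0.91 without CSF3R-only A, CSF3R-only C and CSF3R-first B, that of Nrg4 0.99 and 0.93 without CSF3R-only C and CSF3R-first A, that of Hunk 0.99 without CSF3R-only D, that of Agps 0.96 and 0.96 without CSF3R-only C and CSF3R-first B and 0.99 with the block, and that of Siglec1 -0.99 without CSF3R-first B. Ada passed the limit there in 5 settings, with values up to 1.08 without CSF3R-first C, and without CSF3R-first A Fcnb, Dab2 and Akr1b8 did, at -1.23, -1.27 and -1.45. In CEBPA-first cells Tmem189 was not called in 6 settings (-0.88 to -0.9995) and Cebpe in 2. Genes of a few counts, such as Frmpd4 and Aox4 in CSF3R-only cells, have ratios limited by depth.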

Other observations

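Without the limit to protein-coding genes the same rule gave 33 genes, and 7 of them were of other types. Rian, a long non-coding RNA of the imprinted cluster on chromosome 12, had the highest level of these 7, with means of 0.554 CPM in CSF3R-only, 4.68 CPM in CSF3R-first and 3.52 CPM in CEBPA-first cells. Gm26512, a non-coding transcript also on chromosome 12, had means of 0.670, 2.71 and 3.35 CPM in the same order. Gm48796, annotated as antisense (GRCm38 chr9:27098551-27102343), lies inside Jam3, on the other strand, beyond the end of Ncapd3, and had means of 0.406, 1.54 and 1.17 CPM. The others, Gm7901, Gm38215, Gm43566 and Rpl7a-ps7, had CEBPA-first means of 1.06 to 1.30 CPM; as pseudogenes, an intronic transcript and an unclassified one they may share reads with other genes, which was not tested.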
